A study of Mus musculus with 21 samples.

Results

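MHC class I antigen presentation was examined through 10 genes in whole-brain RNA of 21 SAMP8 mice, a senescence-accelerated strain. The genes were chosen by name: the class I heavy chains H2-K1 and H2-D1 with their light chain B2m, the peptide-loading genes Tap1, Tap2 and Tapbp, the immunoproteasome subunits Psmb8, Psmb9 and Psmb10, and the proteasome activator subunit Psme1. All 10 were among the 16318 genes of the deposited count table, and all 10 passed the low-count filter that left 16303 genes. Of these 21 mice, 9 (3 female, 6 male) had been injected subcutaneously with HsTX1[R14A], a peptide that blocks the Kv1.3 potassium channel. The dose was 1 mg/kg on alternate days. The other 12 mice (6 female, 6 male) received phosphate-buffered saline (PBS). The study dosed more mice than have libraries here. The sample labels also spell the peptide HxTX1[R14A]. Dosing began at 4 months of age and lasted 8 weeks, and brains were taken at 6 months. All mice of both groups were SAMP8, so no comparison with another strain is made here, and each library came from 1 mouse. The question was whether class I genes differed between brains given HsTX1[R14A] and brains given PBS.

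The class I pathway shows samples of a cell's own proteins at its surface. Proteasomes cut proteins into peptides, the TAP transporter (TAP1 with TAP2) carries the peptides into the endoplasmic reticulum, tapasin (Tapbp) holds the empty class I molecule beside the transporter, and the loaded heavy chain travels with beta-2-microglobulin (B2m) to the surface, where CD8 T cells and natural killer cells read it. Interferon induces most of these genes, including the subunits that replace the constitutive catalytic subunits of the proteasome. In the brain the pathway is known in microglia and endothelium, and class I molecules also have described roles at neuronal synapses.

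The heavy chain genes share an upstream control block. It is shown for H2-K1 and H2-D1 because their RNA moved together between mice. The B2m stretch is shown because its RNA did not move with theirs. This covariation changed with the processing, and the heavy chain genes may share reads. The part of these bases in the covariation was not tested. The stretches come from RefSeq promoter windows on GRCm38.p6, stop short of the RefSeq start and overlap 0 GENCODE exons, although the H2-D1 stretch lies within the longer gene that GENCODE annotates there. H2-K1 is at chr17:34000354-34000473 on the minus strand, 126 to 7 bases before its RefSeq start. H2-D1 is at chr17:35262908-35263027 on the plus strand, 186 to 67 bases before the start. B2m is at chr2:122147537-122147656 on the plus strand, 150 to 31 bases before the start. Capitals mark, from left to right in the heavy chains, a kappa B core, an inverted interferon response core, a TGACG box and an inverted CCAAT box. In B2m they mark an interferon response core, a TGACG box and an inverted CCAAT box.
H2-K1: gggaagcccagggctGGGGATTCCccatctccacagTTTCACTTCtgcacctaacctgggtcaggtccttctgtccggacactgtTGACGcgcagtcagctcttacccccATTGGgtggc
H2-D1: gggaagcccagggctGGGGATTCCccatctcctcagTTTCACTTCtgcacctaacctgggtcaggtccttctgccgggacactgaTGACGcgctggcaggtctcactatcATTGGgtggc
B2m: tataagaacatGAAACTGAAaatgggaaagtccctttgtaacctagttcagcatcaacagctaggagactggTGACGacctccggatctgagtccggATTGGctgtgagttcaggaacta

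The H2-K1 and H2-D1 stretches matched at 109 of 120 bases (90.8%) without a gap. Motifs were searched on both strands in the 250 bases before the start. The kappa B core GGGGATTCC was in 0.213% of all 32851 RefSeq windows, and of the 9 class I genes with a window it was in H2-K1 and H2-D1. The interferon response core was searched in 2 spacings, GAANNGAAA (6.31% of all windows, here H2-K1 and H2-D1) and GAAANNGAA (7.13%, here B2m), and these spacings can overlap each other. TGACG was in 17.8% of all windows and in 5 of the 9 (H2-K1, H2-D1, B2m, Tap1 and Psmb9). CCAAT was in 33.8% of all windows and in 6 of the 9, the same 5 genes and Tapbp. The interferon-gamma activated sequence TTCNNNGAA was in 7.02% of all windows and, among the 9, in Psmb8. A match describes these letters only, and the kappa B core was searched in this exact form alone. Other kappa B forms, in B2m or elsewhere, were not looked for. The reference is another mouse strain than SAMP8, and class I genes are polymorphic, so the SAMP8 bases may differ.

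Of the genes, 7 of the 10 lie in the MHC on chromosome 17 of GRCm38, from Tapbp (33915899 to 33929292) to H2-D1 (35262730 to 35267499). Psmb9 (34181987 to 34187764) and Tap1 (34187553 to 34197225) are read in opposite directions, and the annotated genes overlap by 212 bases. Their RefSeq starts are 225 bases apart. The others are B2m on chromosome 2 (122147686 to 122153083), Psmb10 on chromosome 8 (105935735 to 105938444) and Psme1 on chromosome 14 (55578123 to 55581529). The H2-K1 and H2-D1 transcripts were 91.1% identical over 1578 aligned bases, and their estimated counts were not whole (beyond 0.01) in 13 and 18 of the 21 libraries, as happens when reads are divided between similar transcripts. The other 8 genes had whole estimated counts in every library. So the split between H2-K1 and H2-D1 is uncertain. H2-D1 counts were not whole in more libraries than H2-K1 counts, so reads may also be divided with other genes, which was not examined. Tapbp overlaps Zbtb22 on the same strand by 3422 bases, and its count may hold reads of that gene. On the opposite strand B2m overlaps Patl2 by 5398 bases and Psmb10 overlaps Gm16156 by 2710. Psmb8 overlaps Gm20496 by 2139 bases, and Tap2 overlaps Gm20496 by 1923 and Gm15821 by 3148. The strand use of the libraries is uncertain, so these counts too may hold reads of the overlapping genes.

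Library totals ran from 14917174 to 47613792 counts. The column headers name the libraries in 2 forms, and the commoner form covers 10 PBS and 5 HsTX1[R14A] mice while the rarer covers 2 PBS and 4 HsTX1[R14A] mice. What the forms mean is not given in the sources used here. Libraries also differed in how counts depended on transcript length. The slope of centered log2 CPM (read counts at a TMM-scaled common total) on log2 transcript length ranged from -0.391 to 0.151 with a median of -0.023 in PBS mice, and from -0.145 to 0.233 with a median of 0.154 in HsTX1[R14A] mice. The 3 HsTX1[R14A] females had slopes from 0.167 to 0.233, above every PBS mouse. Markers of neurons, astrocytes and oligodendrocytes were abundant in all libraries (6238 to 10400 CPM summed over 12 neuron markers).

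B2m (fold 0.777), Psmb10 (0.753), Psmb9 (0.704) and Psmb8 (0.692) were lower in HsTX1[R14A]-treated brains, B2m with a sign that turned when a trend on transcript length and GC content was removed together. The other 6 class I genes did not pass the test. The test was edgeR's quasi-likelihood test with sex in the model and Benjamini-Hochberg adjustment over all tested genes, and a gene was called at an adjusted p of at most 0.05. Among all tested genes 31.6% were called (5144), and 16.1% were called lower (2618), against which the 4 of 10 stand. These shares are over genes of all lengths, while the 4 have transcripts of 860 to 1628 bases. Of all genes 51.4% were below 0. Among those of up to 1000, 1000 to 1500 and 1500 to 2000 bases it was 90.9%, 84.8% and 73.5%. The share called lower among genes of like length was not computed. The median log2 fold change was -0.26 over the 10 genes and -0.01 over all genes. In bulk tissue, fewer cells of a type and less RNA per cell cannot be told apart. Each library is 1 brain, so p-values set the treatment difference against the spread between these mice. Name form and length slope were not balanced between the treatments, so library differences enter the same comparison.

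**Figure D1:**
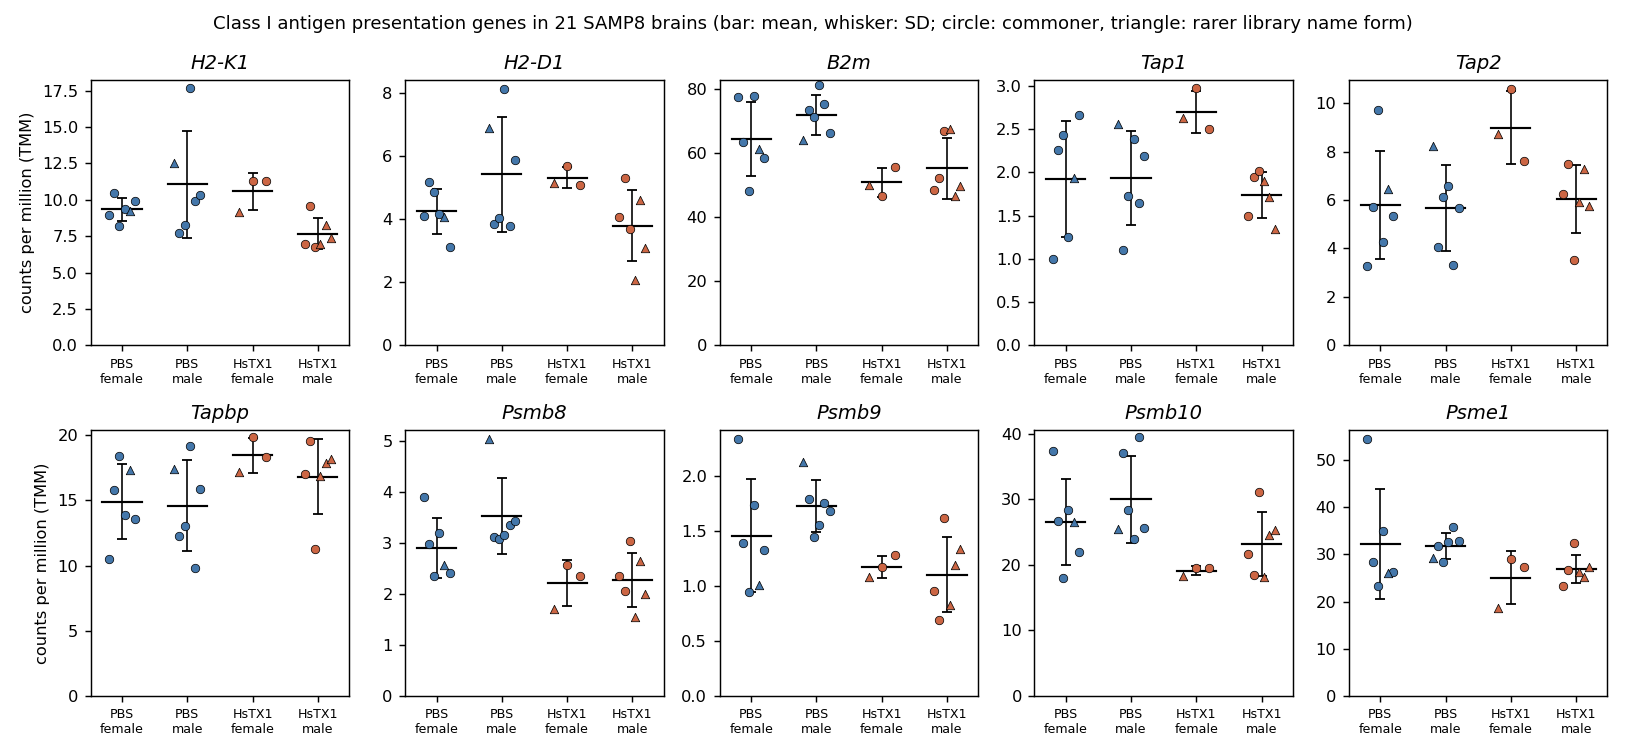
TMM-scaled CPM of the 10 genes in each mouse by treatment and sex, with the mean (bar) and SD (whisker) of each group; circles are libraries of the commoner name form and triangles of the rarer form. All 9 HsTX1[R14A] mice sit below the PBS median for B2m, Psmb8 and Psmb9, while the ranges overlap for all 10 genes.

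Levels can be compared between genes only per length, as counts per kb of transcript scaled to the same total in every library. On this scale B2m was highest in PBS mice, at 147 ± 17.1 (SD, n = 12). Psme1 followed at 52.8 ± 8.2 and Psmb10 at 39.5 ± 5.49, and this order of B2m, Psme1, Psmb10 and then H2-K1 (12 ± 4) held in all 12 PBS and all 9 HsTX1[R14A] mice. In these counts the B2m light chain, which also pairs with other class I-like molecules, was thus far above its partner chains H2-K1 and H2-D1 (4.41 ± 1.74). The heavy chain alleles of SAMP8 may differ from the reference strain, so some of their reads may be lost, which was not tested. Lower in the order, Tapbp was above H2-D1 in all 12 and all 9 mice, and the other neighbors were not separated in every mouse. H2-K1 was above Tapbp (9.85 ± 3.38) in 10 of 12 PBS mice but in 3 of 9 HsTX1[R14A] mice. Psmb8 (3.71 ± 1.09) was above Tap2 (3.29 ± 1.63) in 9 of 12 PBS mice and in 1 of 9 HsTX1[R14A] mice. These orders were not tested. H2-K1 and Psmb8 have shorter transcripts (1619 and 1628 bases) than Tapbp and Tap2 (2898 and 3442), and the library slopes on length differed between the groups. Psmb9 (2.18 ± 0.538) and Tap1 (1.27 ± 0.538) were lowest. On this per-length scale the mean of B2m was 147 in PBS and 145 in HsTX1[R14A] mice. The scale also shifts other genes. With libraries scaled by per-length totals the log2 fold change was -0.02 for B2m and 0.32 at the median of all genes. In CPM these values were -0.36 and -0.01, so B2m was below the median gene on both scales.

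Of the class I chains, B2m was called. In CPM, B2m in PBS mice ranged from 48.1 to 81.2 with a median of 68.8, and in HsTX1[R14A] mice from 46.7 to 67.5 with a median of 50.2. Every HsTX1[R14A] mouse was below the PBS median, and 2 were below the lowest PBS mouse. The log2 fold change was -0.36 (standard error 0.09, adjusted p = 0.0167, edgeR), and it stayed called with each mouse left out. It was -0.37 within the commoner name form (adjusted p = 0.0691) and -0.25 within the rarer (adjusted p = 0.855). It was 0.11 (adjusted p = 0.467) after a loess trend on length and GC content was taken out of every library, -0.22 (adjusted p = 0.381) with the slope on length alone as a covariate, and -0.02 (adjusted p = 0.843) when libraries were scaled by their per-length totals, a scaling that moved the median log2 fold change of all genes to 0.32.

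The heavy chains were not called. H2-K1, whose product presents peptides to CD8 T cells, ranged from 7.69 to 17.7 CPM with a median of 9.65 in PBS mice and from 6.78 to 11.3 with a median of 8.29 in HsTX1[R14A] mice. The highest value belonged to PBS male 83. Its log2 fold change was -0.23 (standard error 0.14, adjusted p = 0.188, edgeR). H2-D1, the other classical heavy chain in the table, ranged from 3.11 to 8.13 CPM with a median of 4.15 in PBS mice and from 2.07 to 5.71 with a median of 4.61 in HsTX1[R14A] mice. Its log2 fold change was -0.16 (standard error 0.18, adjusted p = 0.492, edgeR), and it was 0.02 within the commoner name form and -0.55 within the rarer.

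The heavy chains differed in direction between the sexes before adjustment. H2-K1 was 9.14, 11.3 and 11.3 CPM in the 3 HsTX1[R14A] females, while the 6 PBS females ranged from 8.19 to 10.5. In males H2-K1 ranged from 6.78 to 9.57 with HsTX1[R14A] and from 7.69 to 17.7 with PBS. The log2 difference was 0.18 (standard error 0.19) in females and -0.53 (standard error 0.16) in males, and the female difference exceeded the male one by 0.70 (standard error 0.25, unadjusted p = 0.00982, adjusted p = 1, edgeR). H2-D1 was 5.15, 5.71 and 5.1 CPM in the HsTX1[R14A] females against 3.11 to 5.19 in PBS females. In males H2-D1 ranged from 2.07 to 5.3 with HsTX1[R14A] and from 3.8 to 8.13 with PBS. Its difference between the sexes was 0.83 (standard error 0.33, unadjusted p = 0.0212, adjusted p = 1, edgeR). As reads may be divided between these genes, the results are not independent. The difference in direction did not pass the adjusted test and is given as values.

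Across the 10 genes, no gene passed the test in females alone, in males alone, for the difference between the sexes, or between PBS females and PBS males (edgeR). Among all tested genes 0% (0 genes) were called in females, in males and for the difference between the sexes, with 4539, 3913 and 270 genes at an unadjusted p under 0.05, and 0.0429% (7 genes) were called between PBS females and males. limma/voom likewise called 0 genes in the first 3 comparisons. DESeq2 called 145 genes in females, none of them a class I gene, and 212 in males, among them Psmb8, and 0 for the difference between the sexes. Before adjustment, 3 of the 10 had an edgeR p under 0.05 in females (B2m, Tap2 and Psmb10), against 4539 of all 16303 tested genes. In males 6 of the 10 did (H2-K1, H2-D1, B2m, Psmb8, Psmb9 and Psmb10), against 3913 of all 16303. Log2 differences ran from -0.47 to 0.62 in females and from -0.66 to 0.20 in males. Between PBS females and PBS males they ran from -0.36 to 0.04, with no unadjusted p under 0.103.

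The 3 peptide-loading genes had values above 0 and were not called. Tap2, a subunit of the peptide transporter, ranged from 3.26 to 9.71 CPM with a median of 5.7 in PBS mice and from 3.54 to 10.6 with a median of 7.3 in HsTX1[R14A] mice, and 8 of the 9 were above the PBS median. The log2 difference of Tap2 was 0.31 (standard error 0.19, adjusted p = 0.187, edgeR). Tapbp, which encodes tapasin, ranged from 9.84 to 19.2 CPM with a median of 14.8 in PBS mice and from 11.3 to 19.9 with a median of 17.9 in HsTX1[R14A] mice. Its log2 fold change was 0.24 (standard error 0.12, adjusted p = 0.116, edgeR). It was called without HsTX1[R14A] male 93 (0.30, adjusted p = 0.0391, edgeR), where 3274 of all 16302 tested genes were called higher. With per-length total scaling it was called too (0.55, adjusted p = 0.023, edgeR). Under that scaling 7942 of all 16303 tested genes were called higher, and the median log2 fold change of all genes was 0.32. Tap1, the partner of TAP2, ranged from 0.993 to 2.66 CPM in PBS mice and from 1.34 to 2.97 in HsTX1[R14A] mice, and its log2 difference was 0.10 (standard error 0.18, adjusted p = 0.66, edgeR). With the library slopes on length as a covariate all 3 were below 0, at -0.23 for Tap1, -0.19 for Tap2 and -0.06 for Tapbp, and none was called.

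The 3 catalytic subunits of the immunoproteasome fell. Psmb8 (beta 5i) was at 3.22 ± 0.723 CPM (SD, n = 12) in PBS mice, with a range of 2.35 to 5.04 and a median of 3.14. In HsTX1[R14A] mice Psmb8 was at 2.25 ± 0.475 CPM (SD, n = 9), with a range of 1.54 to 3.03 and a median of 2.35. All 9 HsTX1[R14A] mice were below the PBS median and 5 were below every PBS mouse. The log2 fold change was -0.53 (standard error 0.14, adjusted p = 0.0171, edgeR), and it stayed called with each mouse left out. It was -0.33 within the commoner name form (adjusted p = 0.105) and -1.03 within the rarer (adjusted p = 0.855). Psmb8 was the only one of the 10 genes that was called after the length and GC trend was removed (-0.44, adjusted p = 0.0246).

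Psmb9 (beta 1i) ranged from 0.948 to 2.34 CPM with a median of 1.62 in PBS mice and from 0.695 to 1.62 with a median of 1.17 in HsTX1[R14A] mice. The log2 difference of Psmb9 was -0.51 (standard error 0.17, adjusted p = 0.031, edgeR). Its counts were low, with a median of 33 reads and a minimum of 14. The call was lost without PBS male 90 (-0.49, adjusted p = 0.0591), HsTX1[R14A] female 98 (-0.52, 0.0528), or HsTX1[R14A] male 74 (-0.47, 0.0552), 88 (-0.44, 0.0609) or 81 (-0.46, 0.0567). Psmb10 (beta 2i) ranged from 18 to 39.5 CPM with a median of 26.6 in PBS mice and from 18.2 to 31.1 with a median of 19.5 in HsTX1[R14A] mice, and its log2 difference was -0.41 (standard error 0.13, adjusted p = 0.0255, edgeR). Its call was lost without PBS male 90 (-0.35, adjusted p = 0.0607) or HsTX1[R14A] female 98 (-0.40, adjusted p = 0.0512). All genes called numbered 5144 with every mouse, 2289 without PBS male 90 and 3005 without HsTX1[R14A] female 98. Without HsTX1[R14A] males 74, 88 and 81 they numbered 3733, 3121 and 3263. Within the commoner name form Psmb9 was at -0.49 (adjusted p = 0.124) and Psmb10 at -0.41 (adjusted p = 0.119). With per-length total scaling the log2 fold changes were -0.21 for Psmb8, -0.17 for Psmb9 and -0.05 for Psmb10, and none was called.

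Psme1, a subunit of the interferon-inducible 11S activator, ranged from 23.2 to 54.6 CPM with a median of 30.5 in PBS mice and from 18.6 to 32.4 with a median of 26.6 in HsTX1[R14A] mice. Its log2 fold change was -0.29 (standard error 0.13, adjusted p = 0.0797, edgeR). It was called without PBS female 84 (-0.32, adjusted p = 0.0483) or HsTX1[R14A] male 93 (-0.33, adjusted p = 0.0481). Of all genes 3007 and 3340 were then called lower, against 2618 with every mouse. Psme1 was at 0.05 with the length slope as a covariate. Psme2, the other subunit of the same ring, was called lower, at -0.45 (standard error 0.16, adjusted p = 0.0393, edgeR).

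Each immunoproteasome subunit replaces a constitutive one, so their ratio within a library shows the balance apart from library scaling. In PBS mice, Psmb8 counts were 4.78% of Psmb5 counts, Psmb9 counts were 1.57% of Psmb6 counts and Psmb10 counts were 21.7% of Psmb7 counts (from the mean log2 ratio). The log2 ratio of Psmb8 to Psmb5 ranged from -4.73 to -3.72 with a median of -4.39 in PBS mice and from -5.18 to -4.35 with a median of -4.63 in HsTX1[R14A] mice. The ranges overlapped, and the sex-adjusted difference was -0.30 (standard error 0.12, 95% interval -0.54 to -0.05). The exact permutation test within sex over 77616 arrangements, two-sided, gave p = 0.016, or 0.0479 adjusted over the 3 ratios. This call was narrow: with 1 mouse left out the adjusted p was at most 0.05 in 5 of the 21 cases and reached 0.112 (without HsTX1[R14A] female 98). The 5 were without PBS female 103 or 104, PBS male 101 or 90, or HsTX1[R14A] female 71, and it was 0.0518 with a prior count of 2. Within the commoner name form the difference was -0.12 (15 mice, exact p = 0.276), and within the rarer it was -0.77 (6 mice, exact p = 0.125, the smallest that 8 arrangements allow).

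The log2 ratio of Psmb9 to Psmb6 ranged from -6.47 to -5.48 in PBS mice and from -6.85 to -5.87 in HsTX1[R14A] mice. It differed by -0.19 (standard error 0.14, 95% interval -0.49 to 0.10, exact permutation p = 0.184, adjusted 0.276). The ratio of Psmb10 to Psmb7 ranged from -2.40 to -1.95 and from -2.41 to -2.04, a difference of -0.07 (standard error 0.06, 95% interval -0.20 to 0.06, exact permutation p = 0.283, adjusted 0.283). Within the commoner name form these differences were -0.23 and -0.09, and within the rarer they were -0.20 and -0.02. The counterparts have shorter transcripts than the inducible subunits. After the length and GC trend was removed, the differences were -0.47 for Psmb8 (exact permutation p = 0.000129), -0.34 for Psmb9 (0.0165) and -0.23 for Psmb10 (0.0063).

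**Figure D2:**
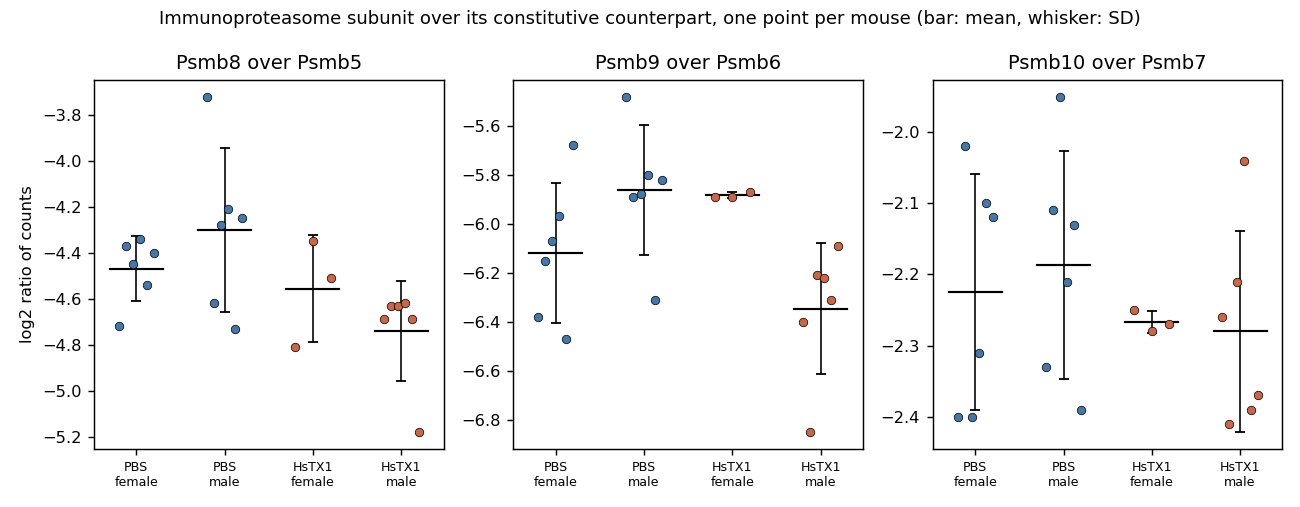
Log2 ratio of the counts of each inducible proteasome subunit to its constitutive counterpart, 1 point per mouse, with the mean (bar) and SD (whisker) of each group; the vertical axes do not start at 0. The Psmb8 ratio of the HsTX1[R14A] males lies from -5.18 to -4.62, and PBS male 102 is highest at -3.72.

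Transcript length moved with these results. The 10 genes have a median transcript of 1623 bases, from 860 in B2m to 3442 in Tap2, against 3063 over the tested genes. Among all tested genes, those of up to 1000 bases (1126 genes, B2m among them) had a median log2 fold change of -0.45 and 90.9% were below 0. Between 1000 and 1500 bases, which holds Psmb9, Psmb10 and Psme1, the median was -0.27 with 84.8% below 0. It was -0.15 between 1500 and 2000 bases (Psmb8 and H2-K1), -0.06 between 2000 and 3000 (H2-D1, Tapbp and Tap1) and 0.04 between 3000 and 4000 (Tap2). So B2m, at -0.36, was nearer 0 than the median of genes of its length. Psmb8 (-0.53), Psmb9 (-0.51), Psmb10 (-0.41), H2-K1 (-0.23) and H2-D1 (-0.16) were below the medians of their bands, Psme1 (-0.29) was close to its own, and Tap1 (0.10), Tapbp (0.24) and Tap2 (0.31) were above. With the length slope as a covariate none of the 16303 genes was called (edgeR), and 1876 had an unadjusted p under 0.05. Among these were Psmb8 at -0.36, B2m at -0.22 and H2-K1 at -0.37, whose unadjusted edgeR p-values were 0.026, 0.0267 and 0.0361. After the length and GC trend was removed 2301 genes were called.

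**Figure D3:**
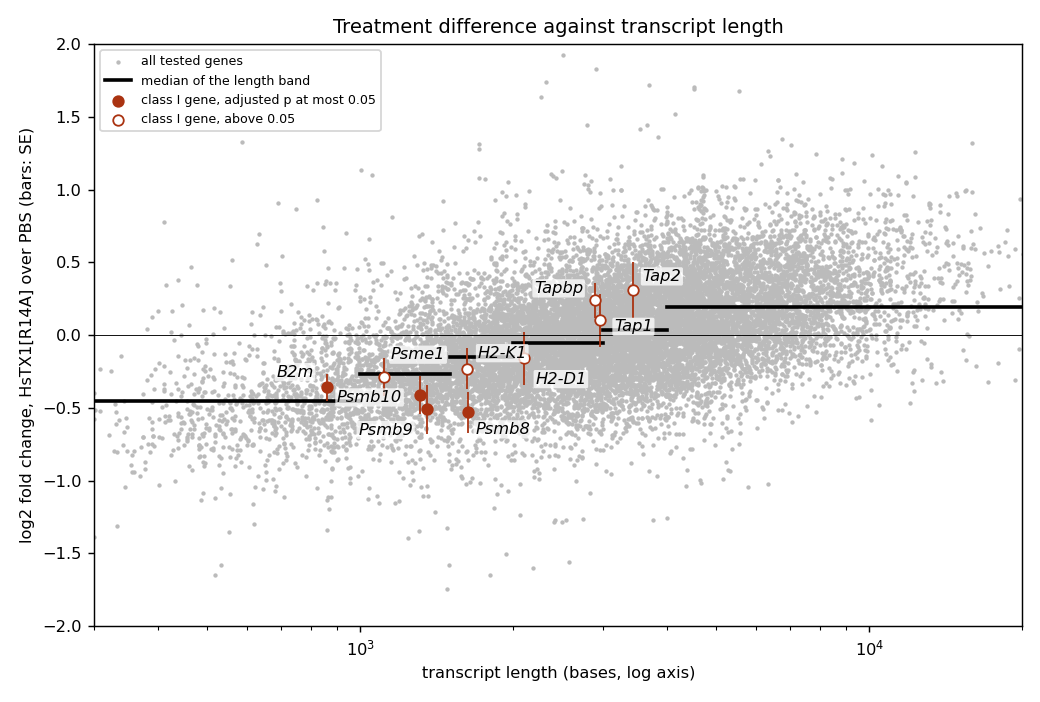
Treatment difference as log2 of HsTX1[R14A] over PBS (vertical axis, bars are standard errors for the class I genes) against transcript length in bases (log axis); gray points are tested genes with a known length (50 of 16224 lie outside the axes), black lines are medians of 6 length bands, and filled red points are class I genes with an adjusted p of at most 0.05. Short transcripts lie below 0, from a median of -0.45 up to 1000 bases to 0.19 over 4000 bases, and the 7 class I genes of up to 2102 bases lie below 0 while Tapbp, Tap1 and Tap2 lie above.

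**Figure D4:**
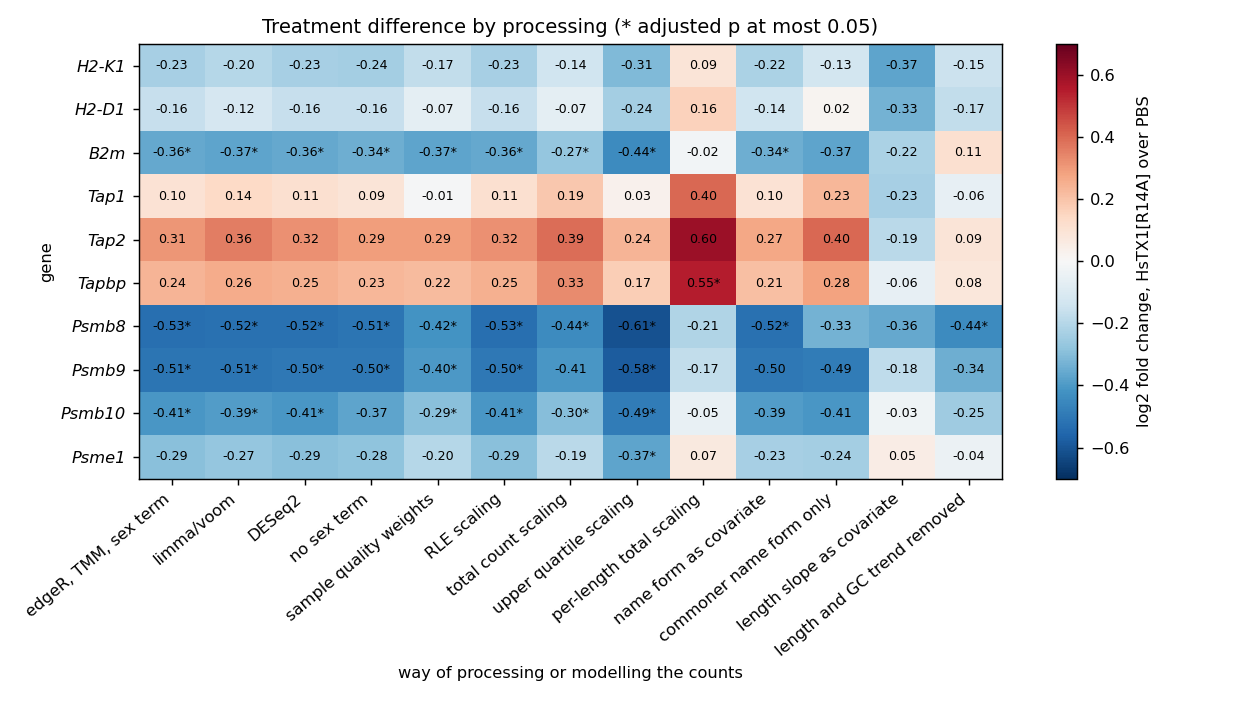
Treatment difference as log2 of HsTX1[R14A] over PBS for the 10 class I genes (rows) under 13 ways of processing or modelling the counts (columns), with an asterisk where the adjusted p is at most 0.05. Psmb8, Psmb9 and Psmb10 are below 0 in every column, from -0.61 to -0.21 for Psmb8, while the other 7 genes change sign in at least 1 column.

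Other genes of the pathway were taken from lists, whose counts stand against 15.5% higher (2526), 16.1% lower and 31.6% called in either direction of all tested genes. After the length and GC trend was removed those shares were 8.18%, 5.93% and 14.1%, and within either name form, or with the length slope as a covariate, 0 of all genes were called, so no list gene was. Of 13 other class I chains and class I-like genes tested, 0 were higher and 3 lower (H2-T23, Mr1 and Hfe), and 11 of the 13 were below 0. After the trend was removed 1 of the 13 was called, lower. H2-T23, which encodes the Qa-1 molecule read by natural killer receptors, fell from 6.6 ± 1.45 (SD, n = 12) to 4.99 ± 0.933 CPM (SD, n = 9), or by a log2 value of -0.43 (standard error 0.12, adjusted p = 0.0185, edgeR). Mr1, which presents vitamin B metabolites to innate-like T cells, was at -0.37 (standard error 0.11, adjusted p = 0.0228, edgeR). After the trend was removed H2-T23 was at -0.28 (adjusted p = 0.107) and Mr1 at -0.18 (adjusted p = 0.152). Of 19 other peptide loading and trimming genes 9 were higher and 1 (Lap3) lower, and 6 and 1 after the trend was removed. Lnpep, an aminopeptidase of endosomes used in cross-presentation, rose by 0.64 on the log2 scale (standard error 0.14, adjusted p = 0.0151, edgeR), and Pdia6, a general protein disulfide isomerase, by 0.34 (standard error 0.07, adjusted p = 0.0151). Lnpep has a transcript of 12052 bases. The other 7 that were called higher include Calr, Hspa5, Ganab and Sec61a1, which serve the folding and entry of many proteins of the endoplasmic reticulum.

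Of the 14 constitutive 20S proteasome subunits 8 were lower and 0 higher, and all 14 were below 0, with a median of -0.40 against -0.46 for the 4 immunoproteasome and activator genes. Psmb2 was at -0.45 (standard error 0.11, adjusted p = 0.0163, edgeR), and Psma1 was at -0.44 (standard error 0.11, adjusted p = 0.0171). The counterparts Psmb5 (-0.25, adjusted p = 0.141), Psmb6 (-0.35, adjusted p = 0.113) and Psmb7 (-0.34, adjusted p = 0.0649) were not called. Of 9 other activator and assembly genes 2 were lower, Psme2 and Pomp, the latter a chaperone of proteasome assembly at -0.49 (standard error 0.13, adjusted p = 0.0172, edgeR). After the trend on length and GC content was removed 0 of the 14 were called, with Psmb2 at -0.06 and Psma1 at -0.06 and 5407 of all genes at an unadjusted p under 0.05.

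Of 26 regulators of class I and interferon genes tested, 5 were higher (Nfya, Stat2, Jak1, Stat3 and Ifnar1) and 1 lower (Irf1, a factor of the interferon response), a smaller share than the 31.6% of all genes called. Nfya, a subunit of the factor that binds the CCAAT box, rose by 0.25 on the log2 scale (standard error 0.06, adjusted p = 0.0171, edgeR), and Stat2, which carries type I interferon signals, by 0.36 (standard error 0.10, adjusted p = 0.0198). After the trend was removed Nfya was at 0.14 (adjusted p = 0.0625) and Stat2 at 0.15 (adjusted p = 0.0888), and 1 of the 26 was called. Of 38 gene IDs for 37 interferon-induced genes (Gbp6 has 2) 18 were lower and 0 higher, against 16.1% lower of all genes, with a median log2 fold change of -0.33. The most significant were Xaf1 (-0.56, standard error 0.11, adjusted p = 0.0151, edgeR) and Gbp7 (-0.45, standard error 0.09, adjusted p = 0.0151). Their transcripts have 2597 and 5614 bases, lengths at which the medians of all genes were -0.06 and 0.19. After the trend was removed 5 of the 38 were lower, against 5.93% of all genes. Of 9 MHC class II genes 2 were lower, Ctss (-0.43, adjusted p = 0.0151, edgeR), the protease of the class II pathway, and H2-Ob (-0.65, adjusted p = 0.0194). That is 2 of 9 against 16.1% lower of all genes. After the trend was removed Ctss was at -0.13 (adjusted p = 0.175) and H2-Ob at -0.53 (adjusted p = 0.0505), and 0 of the 9 were called.

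Markers of cells that could carry class I RNA were counted against the same shares of all genes, 16.1% lower and 15.5% higher. Of 22 microglia markers 10 were lower and 0 higher, and their summed level ranged from 703 to 964 CPM in PBS mice and from 597 to 847 in HsTX1[R14A] mice. C1qb was at -0.43 (standard error 0.09, adjusted p = 0.0151, edgeR), and Ctss is in this list too. After the trend was removed 5 of the 22 were lower, against 5.93% of all genes. Of 7 perivascular macrophage markers 3 were lower, with Mrc1 at -0.78 (adjusted p = 0.0193) and F13a1 at -0.68 (adjusted p = 0.0368), and their sum ranged from 8.93 to 24.7 and from 8.54 to 19.1 CPM. Of 18 endothelial markers 3 were higher, a share near that of all genes, with Flt1 at 0.64 (adjusted p = 0.0191) and Slc2a1 at 0.40 (adjusted p = 0.0237), and their sum ranged from 212 to 311 and from 215 to 351 CPM. Of 14 mural and fibroblast markers 1 was higher, below that share (Abcc9 at 0.52, adjusted p = 0.0493), and Rgs5 was at -0.16 (adjusted p = 0.0637). After the trend was removed 1 of the 7 perivascular macrophage markers was lower. Then 2 of the 18 endothelial markers were higher, against 8.18% of all genes, and 0 of the 14 mural and fibroblast markers were called. The part of these cells in the class I differences was not tested.

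The remaining lists stand against the same shares of all genes, 16.1% lower and 15.5% higher. In the oligodendrocyte list 6 of 10 markers were lower, led by Opalin at -0.99 (adjusted p = 0.0145, edgeR) and Mobp at -0.67 (adjusted p = 0.0145). In the astrocyte list 4 of 10 markers were lower and 1 higher, with S100b at -0.72 (adjusted p = 0.0152) and Gfap at -0.59 (adjusted p = 0.0312). After the trend was removed 5 oligodendrocyte and 3 astrocyte markers were lower, against 5.93% of all genes. Of 12 neuron markers 2 were higher, a share near that of all genes, and 0 after the trend was removed. The 2 were Nefm at 0.61 (adjusted p = 0.0217, edgeR) and Syt1 at 0.31 (adjusted p = 0.0349). Of 12 choroid plexus and ependymal markers 1 was lower, below the share of all genes, and 1 was lower after the trend was removed. Ccdc153 was at -1.15 (adjusted p = 0.0161, edgeR) and Tmem212, not called, at -0.81 (adjusted p = 0.058). The summed level of the 12 choroid plexus and ependymal markers ranged from 295 to 1548 CPM in PBS mice and from 199 to 1250 in HsTX1[R14A] mice. None of 5 erythrocyte genes was called, with Hbb-bs at 0.63 (adjusted p = 0.276) and Hbb-bt at 0.54 (adjusted p = 0.35). Of 18 lymphocyte and class I receptor genes listed, Cd4 alone was in the table (-0.21, adjusted p = 0.489), and microglia can also express it. Cd8a, Nlrc5 and Ciita were not analysed here.

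Within groups, the class I genes did not vary as a unit. Over the 21 mice with the 4 group means removed, 4 of 10 chosen pairs had an adjusted p of at most 0.05 for Pearson's r (permutation within the groups, 100000 resamples, two-sided, adjusted over the 10 pairs). Psme1 and Psme2, partners in the activator ring, had r = 0.76 (permutation p = 0.00027, adjusted 0.0022) and Spearman's rho = 0.74 (permutation p = 0.00047, adjusted 0.0047). Psmb8 and Psmb9 had r = 0.73 (permutation p = 0.00044, adjusted 0.0022) and rho = 0.65 (permutation p = 0.00423, adjusted 0.0211). H2-K1 and H2-D1, which may share reads, had r = 0.67 (permutation p = 0.00341, adjusted 0.0114) and rho = 0.61 (permutation p = 0.0129, adjusted 0.043). Tap1 and Tap2 had r = 0.62 (permutation p = 0.013, adjusted 0.0325) and rho = 0.54 (permutation p = 0.0255, adjusted 0.0638). Without the 2 mice farthest from the median these r were 0.57, 0.65, 0.54 and 0.46. Within the 15 mice of the commoner name form they were 0.94, 0.92, 0.75 and 0.61, and the rarer form holds too few mice per group for a value.

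Pairs that work together in the pathway were not all related. B2m had r = 0.03 with H2-K1 (permutation p = 0.889, adjusted 0.889; rho = -0.15, p = 0.509) and r = -0.30 with H2-D1 (permutation p = 0.206, adjusted 0.257; rho = -0.35, p = 0.149). Tap1 and Psmb9, the neighbors with starts 225 bases apart, had r = -0.44 (permutation p = 0.0839, adjusted 0.12; rho = -0.34, p = 0.167). Tap2 and Psmb8 had r = -0.23 (permutation p = 0.341, adjusted 0.379; rho = -0.09, p = 0.726). Psmb8 with Psmb10 had r = 0.50 (permutation p = 0.0341, adjusted 0.0683; rho = 0.46, p = 0.0486) and Tap1 with Tapbp had r = 0.51 (permutation p = 0.0415, adjusted 0.0691; rho = 0.50, p = 0.0483). The library slope on transcript length moved with many of these genes. With group means removed, its r over the 21 mice was -0.93 with Psmb10, -0.81 with Psme1 and -0.78 with Psmb9, and 0.86 with Tap2, 0.80 with Tapbp and 0.68 with Tap1, while it was 0.23 with H2-K1 and 0.16 with H2-D1. After the length and GC trend was removed, r was 0.65 for Psmb8 with Psmb9, 0.60 for H2-K1 with H2-D1, 0.32 for Psme1 with Psme2 and 0.19 for Tap1 with Tap2, and 1 of the 10 pairs (Psmb8 with Psmb9) passed. B2m then had r = 0.42 with H2-K1 and r = -0.10 with H2-D1.

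**Figure D5:**
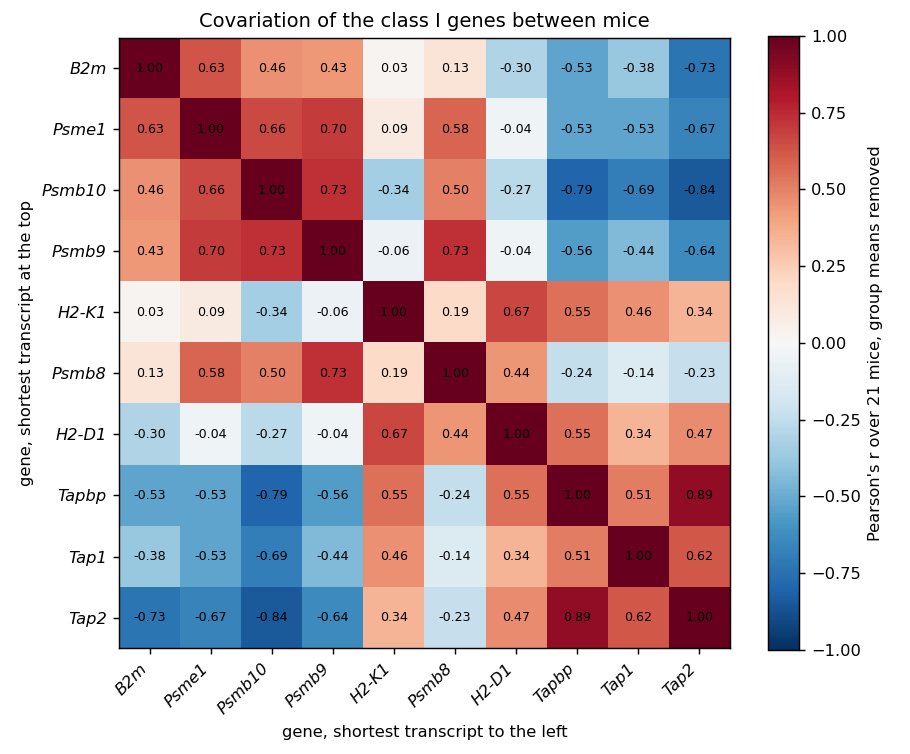
Pearson's r between the log2 CPM of each pair of class I genes over 21 mice with the 4 group means removed, genes ordered by transcript length. Short-transcript genes (B2m, Psme1, Psmb10 and Psmb9) have r from 0.43 to 0.73 with each other and from -0.84 to -0.38 with Tapbp, Tap1 and Tap2.

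The 5 genes outside the 10 whose residual log2 CPM was most like the mean of the class I genes, among 13294 genes whose log2 CPM averaged 1 or more, were Fstl5 (r = 0.83 over 21 mice), Uhrf2 (0.81), H2-Q4 (0.81), Hsdl1 (0.80) and Amz1 (0.79). H2-Q4 is a non-classical class I heavy chain related in sequence to H2-K1 and H2-D1. The others have transcripts of 3141 to 5107 bases. These are descriptions over mice that share their library slopes.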

How the data were processed

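RNA-seq of 21 whole brains was used, 1 library per mouse. The authors used the nf-core RNA-seq pipeline with STAR for alignment to GRCm38 and Salmon for quantification, and the estimated counts they deposited are not normalized. The labels and the study's methods name different library kits, so strand use is uncertain. The deposited table also holds the authors' own fold changes and p-values, and 53 further per-sample columns (37 of CPM and 16 of counts), none of which was used. Of the estimated counts, 90.5% lay within 0.01 of a whole number, and every value was rounded first. No row lacked a gene name. Sex genes matched the label in 21 of 21 libraries, and in 48 pairs of same-group mice the smallest mean chi-square per gene was 7.58, so no library appeared to be entered more than once.

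After filterByExpr and TMM scaling, edgeR 4.0.16 (quasi-likelihood, R 4.3.3) was run, in a model with sex and treatment and in a model of the 4 sex and treatment groups, with Benjamini-Hochberg adjustment and a threshold of 0.05. Standard errors follow from the F statistic (size over root F). The prior count was 2 for log2 CPM and 0.5 for ratios. Transcript length is that of the longest protein-coding transcript in the GENCODE annotation of GRCm38. Alternatives were limma/voom 3.58.1, DESeq2 1.42.0, 3 other scalings, other filters, the name form or the length slope as a covariate, the commoner name form alone, removal of a loess trend (span 0.5) on length and GC, quality weights, no sex term, and each mouse left out. The rarer name form alone, the lowest 2 length slopes left out (PBS female 103 and PBS male 90) and per-length total scaling were chosen after seeing the data. The procedure was tested on simulated data. At 14 to 2747 counts per class I gene and mouse, the spread between mice rather than counting error sets the precision of most values.

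Members and lists were chosen with earlier results of these data known. Named by rule were the 10 genes, the 2 genes of smallest p in each other list, Psmb5, Psmb6, Psmb7 and Psme2, and the 5 most alike genes. Genes whose names are given only to say which members of a list were called, such as Hfe, Lap3, Jak1, Stat3, Ifnar1, Irf1, Calr, Hspa5, Ganab and Sec61a1, were named after their values were seen.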

Additional observations from a re-analysis of the deposited data

Results flagged for a closer look

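Among 39 sets of 6 mice tested (13 measures in each of 3 groups), 3 held a mouse far from the others, and chance alone gives about 1 in 20 sets. Tapbp in HsTX1[R14A] male 93 was 11.3 CPM, where the other 5 ranged from 16.9 to 19.6. Without this mouse Tapbp was called (adjusted p = 0.0391, edgeR). Psmb8 in PBS male 102 was 5.04 CPM, where the other 5 PBS males ranged from 3.08 to 3.43, and its library has the rarer name form. The log2 ratio of Psmb8 to Psmb5 in HsTX1[R14A] male 92 was -5.18, where the other 5 ranged from -4.69 to -4.62, and this library too has the rarer name form. Psmb8 itself stayed called with either mouse left out.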

How the results depend on the processing

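The count of class I genes called, 4 with edgeR, was also 4 with limma/voom, DESeq2, RLE scaling, either other filter and quality weights, 3 with total count scaling or no sex term, and 5 with upper quartile scaling. It was 2 with the name form as a covariate, 2 without the lowest 2 length slopes, 1 after the length and GC trend was removed (Psmb8), 1 with per-length total scaling (Tapbp, higher) and 0 with the length slope as a covariate or within either name form, where 0 of all genes tested were called too (edgeR, 5797 genes at an unadjusted p under 0.05 in the commoner and 532 in the rarer). With each mouse left out it ran from 2 (without PBS male 90 or HsTX1[R14A] female 98) to 6 (without HsTX1[R14A] male 93, 5 lower and 1 higher). All genes called then numbered 2289, 3005 and 6614, against 5144 with every mouse, so the class I counts moved with those of all genes. In males DESeq2 called 1, and edgeR 0. Total count and upper quartile scaling moved the median log2 fold change of all genes to 0.08 and -0.09. Under total count scaling, all genes called split into 3467 higher and 1368 lower, under upper quartile scaling into 1679 and 3764, and under per-length total scaling into 7942 and 272, against 2526 and 2618. All genes called numbered 1999 with the name form as a covariate, 2887 without the lowest 2 slopes and 2984 with no sex term.

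Signs changed as follows. With per-length total scaling H2-K1 was 0.09, H2-D1 0.16, Psme1 0.07, Cd4 0.11 and Rgs5 0.17. With the length slope as a covariate Tap1 was -0.23, Tap2 -0.19, Tapbp -0.06, Psme1 0.05, Psme2 0.03 and Abcc9 -0.07. With the length and GC trend removed B2m was 0.11 and Tap1 -0.06, and r was 0.11 for Tap2 with Psmb8 and -0.02 for Tap1 with Tapbp. Within the commoner name form H2-D1 was 0.02. Within the rarer Tap1 was -0.22, Tap2 -0.07 and Cd4 0.01. With quality weights Tap1 was -0.01. The causes were not tested. The Psmb8 to Psmb5 difference no longer passed (adjusted p over 0.05) at -0.29 with a prior count of 2, and was -0.12 within the commoner name form and -0.77 within the rarer. The Psmb9 to Psmb6 and Psmb10 to Psmb7 differences passed (-0.34 and -0.23) after the trend was removed, and the count of related pairs fell from 4 to 1. With each mouse left out, the 3 ratio differences ran from -0.36 to -0.22, from -0.24 to -0.12 and from -0.10 to -0.04. No paired analysis was possible because the mouse numbers are unique to each mouse.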
